A study of Danio rerio with 4 samples.

Results

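The pancreatic elastases of zebrafish were followed in whole embryos mutant for macrophage stimulating protein (Msp, gene mst1) and in wild type. Of the 9 elastase genes listed (ela2, ela2l, ela3l and cela1.1 to cela1.6), 8 had probes on the array, and cela1.2 had none. They were found by the symbol, older symbol or accession of the 43603 probes, of which 16 were elastase probes. The series had 4 RNA pools, each from 30 whole embryos of strain WIK raised at 28 °C without treatment. These were Msp mutants at 6 days post fertilization (dpf), wild type at 6 dpf, Msp mutants at 3 dpf and wild type at 3 dpf. The labels give neither the allele nor its zygosity. Mutant and wild type of a stage were hybridised together on 2 Agilent 2-colour arrays, with the mutant in Cy5 on array 1 and in Cy3 on array 2.

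Pancreatic elastases are serine proteases of the chymotrypsin fold. Acinar cells of the exocrine pancreas make them as inactive proenzymes, store them in zymogen granules and secrete them into the gut, where trypsin activates them. They cut dietary protein. In zebrafish ela3l and ela2l, also known as elastaseA and elastaseB, serve as markers of differentiated acinar cells, and the acinar enzymes come up as the larva turns from its yolk to feeding. In the RefSeq table of assembly GRCz12tu, ela2l and ela2 are neighbours. There the order cela1.6, cela1.1, cela1.2, cela1.3, cela1.4, cela1.5 is broken by 1 other protein-coding gene, LOC100151078, between cela1.6 and cela1.1. How far probes of such related copies bind each other's transcripts was not tested.

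Values are normalized log2 signals of a gene's brightest probe, or log2 ratios of mutant over wild type. A ± is the SD of the 2 dye-swapped arrays. These carried the same pools as far as the labels show, so it measures labelling and hybridisation and not the spread between embryos. The arrays' number limits the precision. Per array, spots had a median signal of 146.5 to 154 (local background 47.5 to 49) in green and of 167 to 187 (87 to 87.5) in red, and 0 were saturated. Across the 19434 genes tested, the log2 ratios of the dye-swapped 6 dpf arrays correlated at 0.401, and those of the 3 dpf arrays at 0.409. Arrays of equal dye orientation but different stage correlated at 0.443 (array 1) and 0.545 (array 2). Transcript of mst1 itself fell (log2 ratios -1.12 ± 0.16 at 6 dpf and -0.65 ± 0.06 at 3 dpf; limma over both stages, adjusted p = 0.0424). Where its probe lies relative to the mutation is not given in the sources used here.

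From 3 to 6 dpf elastase transcript rose in both genotypes. As a mean of both genotypes, the brightest probes of ela3l, cela1.6, ela2l and ela2 rose by more than 100-fold. The other probes of these genes rose less than the brightest. At 6 dpf the mutant pool had less transcript of all 8 genes than the wild-type pool, from 42.5% of the wild-type signal for cela1.6 to 80.2% for cela1.5. The dim cela1.3, detected in the mutant on 1 of 2 arrays, stood at 89.4%, but its log2 ratio moved from -0.16 to -0.96 with Agilent's processed signals. At 3 dpf the brightest probe of cela1.6 was lower in the mutant by a similar amount and that of ela3l by less. Those of ela2, ela2l and cela1.5 lay near the wild-type level, though the other ela2l probes had log2 ratios of 0.32 and 0.33. The brightest probes of cela1.1, cela1.3 and cela1.4 were too near background at 3 dpf to compare. Across both stages limma called cela1.6 alone among the elastases, and it fell.

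**Figure D1:**
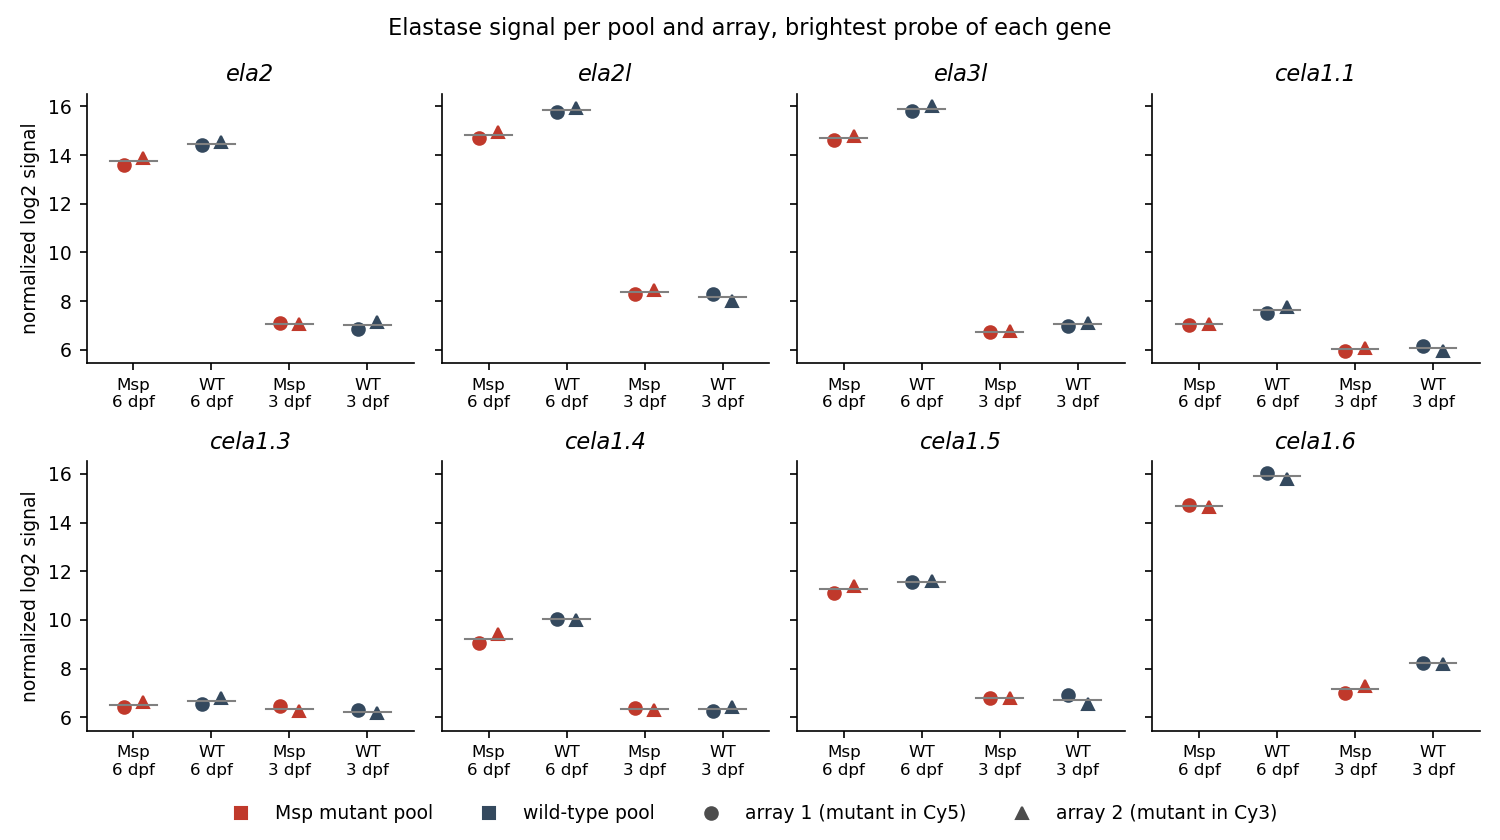
Normalized log2 signal (y axis) of the brightest probe of each elastase in the 4 pools (x axis; Msp, Msp mutant; WT, wild type). Circles are array 1, triangles array 2 and grey lines the pool means. In ela3l the 6 dpf signals were 14.63 and 14.78 in the mutant and 15.80 and 16.02 in wild type, and the 3 dpf signals 6.72 and 6.76 in the mutant and 7.0 and 7.11 in wild type.

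The increase with age was measured first. The fit over the 4 pools (limma, with genotype and stage as terms) called 7 of the 8 genes higher at 6 dpf with a log2 change of at least 1, where 4.86% of all genes tested were called in that direction and 10.2% in either. Of the 15 probes tested 12 were called higher, against 4.69% of all probes. Over the 8 genes the median log2 change was 5.86, against 0.01 over all genes. All 8 passed the filter on dim probes, but cela1.1, cela1.3 and cela1.4 did so through their 6 dpf pools, so their change is bound up with the filter. Among the probes called, the same holds for A_15_P676036 of ela2, A_15_P117864 of ela3l and A_15_P209091 of cela1.6. The counts of 7 genes and 12 probes thus include members that passed only where they were high.

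The elastase ela3l had 14.63 and 14.78 on arrays 1 and 2 in the mutant at 6 dpf and 15.80 and 16.02 in wild type at 6 dpf. At 3 dpf it had 6.72 and 6.76 in the mutant and 7.0 and 7.11 in wild type. The stages did not overlap, and at each stage both mutant values lay below both wild-type values. The log2 change of 8.41 ± 0.20 (SE, 4 pools; limma, adjusted p = 1.28e-05) is 340.5-fold, and it ranked 2 among the changes of 19434 genes. By the other ela3l probe, A_15_P117864, the change was 2.204 (SE 0.152). That probe was not well above background on both 3 dpf arrays in either genotype. With the mean of all detected probes the ela3l change was 5.308, and with Agilent's processed signals 9.668, so its size is not settled.

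The cela1 family gene cela1.6 had 14.70 and 14.65 in the mutant at 6 dpf and 16.03 and 15.79 in wild type at 6 dpf. Its 3 dpf signals were 7.01 and 7.30 in the mutant and 8.25 and 8.21 in wild type. Here too the stages were far apart, and both mutant values lay below both wild-type values at each stage. The change of 7.60 ± 0.08 (SE; limma, adjusted p = 9.25e-07) is 194-fold and ranked 3. The other cela1.6 probe, A_15_P209091, changed by 4.19 (SE 0.20). It too was not well above background on both 3 dpf arrays in either genotype.

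At 6 dpf ela2l had signals of 14.71 and 14.94 in the mutant and 15.79 and 15.93 in wild type. Its 3 dpf signals were 8.30 and 8.44 in the mutant and 8.30 and 8.02 in wild type. The genotypes were apart at 6 dpf and not at 3 dpf, where array 1 gave them nearly the same signal. The change with age was 7.08 ± 0.27 (SE; limma, adjusted p = 3.70e-05), which is 135-fold and ranked 9. The other ela2l probes changed by 6.83 (SE 0.26, A_15_P656136) and 4.73 (SE 0.32, A_15_P189296). The neighbouring gene ela2 had 13.61 and 13.89 in the mutant and 14.41 and 14.52 in wild type at 6 dpf. At 3 dpf it had 7.10 and 7.04 in the mutant and 6.88 and 7.14 in wild type. Its genotypes did not overlap at 6 dpf and did at 3 dpf. Its change was 7.07 ± 0.18 (SE; limma, adjusted p = 1.47e-05), or 134-fold, and ranked 10. The other ela2 probe, A_15_P676036, changed by 2.18 (SE 0.18). In neither genotype was it well above background on both 3 dpf arrays.

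Smaller increases were found for the other cela1 genes. For cela1.5 the signals were 11.10 and 11.41 in the mutant and 11.56 and 11.59 in wild type at 6 dpf, and 6.81 and 6.81 in the mutant and 6.91 and 6.54 in wild type at 3 dpf. The change of 4.65 ± 0.11 (SE; limma, adjusted p = 1.28e-05) is 25.1-fold. For cela1.4 they were 9.06 and 9.42 in the mutant and 10.02 and 10.02 in wild type at 6 dpf, and 6.41 and 6.28 in the mutant and 6.25 and 6.43 in wild type at 3 dpf. The genotypes of both genes overlapped at 3 dpf and were apart at 6 dpf. At 3 dpf this probe of cela1.4 was well above background on 1 of 2 arrays in each genotype, and its change of 3.29 ± 0.18 (SE; limma, adjusted p = 6.66e-05) is 9.76-fold. That call rests on the choice of probe. The other cela1.4 probe, A_15_P622446, changed by 0.41 (SE 0.13), and it became the brightest with normexp offset 10, which gave 0.49; with Agilent's processed signals it did so too, with 0.59.

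The dimmest signals belonged to cela1.1 and cela1.3, which bounds what can be said of them at 3 dpf. For cela1.1 the 6 dpf signals were 7.02 and 7.07 in the mutant and 7.53 and 7.77 in wild type, and on no 3 dpf array was it well above background in either genotype. By this probe the measured signal was 2.02-fold higher at 6 than at 3 dpf in the mutant and 3-fold higher in wild type. The other detected cela1.1 probe, A_15_P150526, changed less, by 0.59 (SE 0.11) on the log2 scale. For the brightest probe limma called the change of 1.3 ± 0.14 (SE, adjusted p = 0.000575). This call was lost with the mean of all detected probes, where the change was 0.94. The change was larger with normexp offset 10 (2.24) and with Agilent's processed signals (4.34), so its size is not settled. For cela1.3 the 6 dpf signals were 6.43 and 6.62 in the mutant and 6.57 and 6.80 in wild type, and the 3 dpf signals 6.47 and 6.25 in the mutant and 6.30 and 6.18 in wild type. These values lay close together at both stages, and its change of 0.30 ± 0.09 (SE; limma, adjusted p = 0.0315) stayed under the fold required. In wild type cela1.3 was not well above background at 3 dpf, and the measured increase there was 1.36-fold.

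By these values the elastases gained less from 3 to 6 dpf in the mutant than in wild type. How many of all genes did so was not counted. Of the elastases, cela1.1, cela1.3 and cela1.4 were near background at 3 dpf. In addition cela1.3 passed the filter on dim probes only through wild type at 6 dpf, where it was higher. Its smaller gain in the mutant is thus bound up with the filter. The mutant gained 6.45 and wild type 7.70 for ela2l, the mutant 7.97 and wild type 8.85 for ela3l, and the mutant 6.67 and wild type 7.46 for ela2. For cela1.6 the gains were 7.52 in the mutant and 7.68 in wild type. This gap of 0.16 was smaller than the SD of its 3 dpf ratio (0.24). Under other settings the direction turned for 2 elastases. With Agilent's processed signals cela1.6 stood at -1.18 at 6 dpf and -1.62 at 3 dpf and ela3l at -0.96 at 6 dpf and -1.0 at 3 dpf, and with normexp offset 10 cela1.6 stood at -1.23 at 6 dpf and -1.32 at 3 dpf. With 1 pool of each genotype and stage, these differences could not be tested.

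At 6 dpf elastase transcript was compared between the mutant pool and the wild-type pool. All 8 genes were lower in the mutant on both 6 dpf arrays, as were 26.3% of all genes tested, and the median log2 ratio of the 8 was -0.75 against 0.01 over all genes. Among the 8, cela1.3 passed the filter on dim probes only through the wild-type 6 dpf pool, where it was higher. Its place in this count is thus bound up with the filter. Genes were counted by size, since 1 pool per genotype allows no test. The rule asked for a mean log2 ratio of at least 1 in size, of at least 0.5 with the same sign on each array, and for detection on both arrays in the genotype with more signal. By this rule 3 elastases were lower, cela1.6, ela3l and ela2l, where 0.257% of all genes were lower and 0.515% either lower or higher, and 0 elastases were higher.

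On arrays 1 and 2 of 6 dpf the log2 ratio of cela1.6 was -1.32 and -1.15 (mean -1.23 ± 0.13), or 42.5% of wild type. That of ela3l was -1.17 and -1.24 (-1.20 ± 0.05), or 43.5%, and that of ela2l -1.08 and -0.99 (-1.04 ± 0.06), or 48.7%. The ratios of cela1.6 and ela3l were closer together than the SD of the arrays, and that of ela2l was nearer to 0 than either by more than its own SD. With the mean of all detected probes ela3l and ela2l changed places, at -0.96 for ela3l and -1.07 for ela2l. The next were cela1.4 with -0.97 and -0.60 (-0.78 ± 0.26, 58.2%), ela2 with -0.80 and -0.64 (-0.72 ± 0.12, 60.7%) and cela1.1 with -0.51 and -0.70 (-0.60 ± 0.13, 65.8%). Neighbours in this order again lay within the SD of the arrays. The smallest differences were those of cela1.5 with -0.46 and -0.18 (-0.32 ± 0.19, 80.2%) and cela1.3 with -0.14 and -0.18 (-0.16 ± 0.03, 89.4%).

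**Figure D2:**
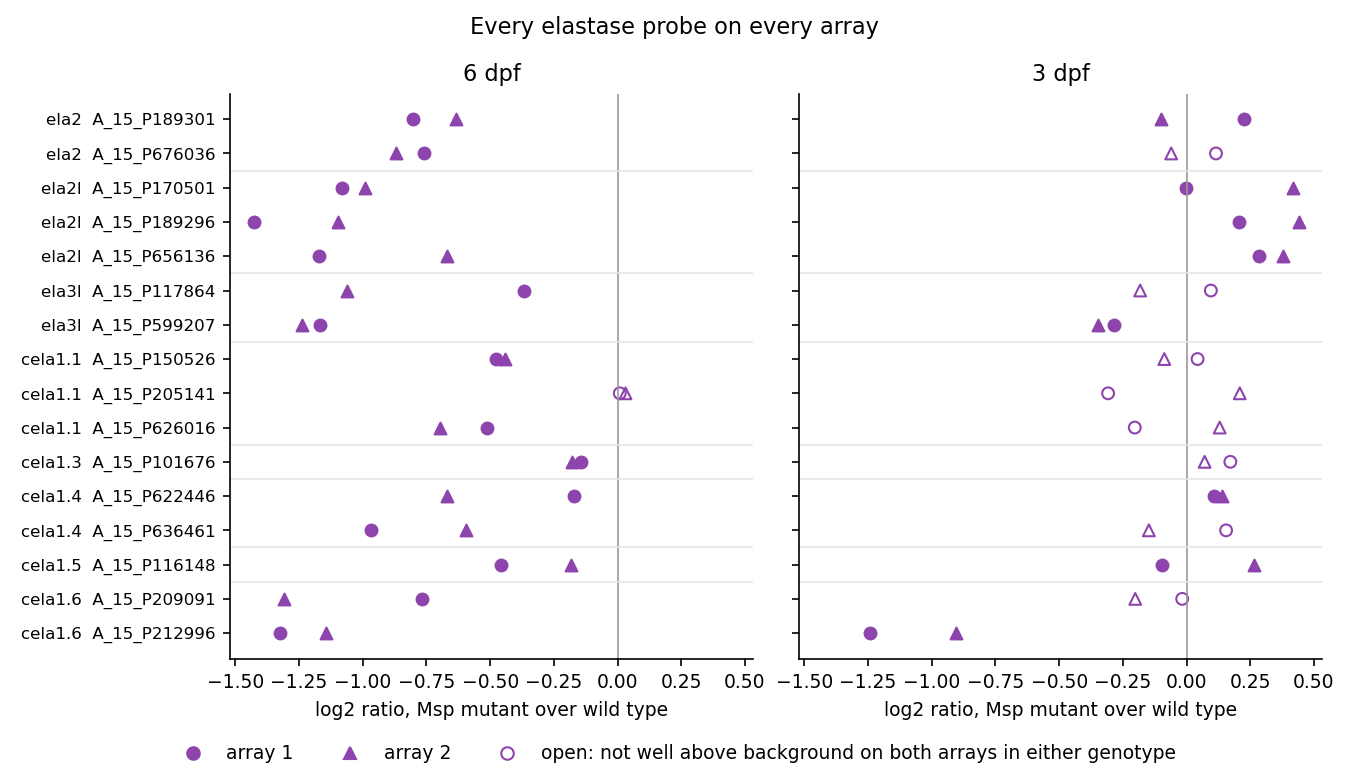
Log2 ratio of mutant over wild type (x axis) of all 16 elastase probes (rows) at 6 dpf (left) and 3 dpf (right); circles are array 1, triangles array 2, and open symbols mark probes not well above background on both arrays in either genotype at that stage. At 6 dpf the 15 detected probes lie below 0 on both arrays, and at 3 dpf probe A_15_P212996 of cela1.6 stands apart at -1.24 and -0.91.

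The other detected probes of these genes gave the same direction at 6 dpf. Of the 16 probes 15 passed the filter on dim signals, and the 15 were below 0 on both 6 dpf arrays, as were 27.3% of all probes tested. Probes A_15_P150526 of cela1.1 and A_15_P101676 of cela1.3 passed only through wild type at 6 dpf, where they were higher. Their direction is thus bound up with the filter. The excluded probe was A_15_P205141 of cela1.1, which no array placed well above background. Its 6 dpf ratios were 0.01 and 0.03. By the size rule 5 of the 15 were lower (0.271% of all probes tested): 2 of 3 for ela2l, 2 of 2 for cela1.6 and 1 of 2 for ela3l. The 3 probes of ela2l stood at -1.04 ± 0.06, -1.26 ± 0.23 and -0.92 ± 0.35, and the 2 of cela1.6 at -1.23 ± 0.13 and -1.04 ± 0.38. For ela3l they stood at -1.20 ± 0.05 and -0.72 ± 0.49, for ela2 at -0.72 ± 0.12 and -0.81 ± 0.08, and for cela1.4 at -0.78 ± 0.26 and -0.42 ± 0.35. Within a gene the detected probes thus differed by less than 0.5 on the log2 scale.

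The 6 dpf ratios of the dimmest genes depended on how background was treated. The offset of 50 pulls ratios of dim probes toward 0. With Agilent's processed signals, which carry no such offset, cela1.1 stood at -1.19 and cela1.3 at -0.96, but ela3l at -0.96 and ela2l at -0.82. The 2 genes past the size rule were then cela1.6 and cela1.1, so ela3l and ela2l lost that call. They lost it too in the authors' deposited table, whose 6 dpf values equal Agilent's ratios in the scanner files within 0.005. That table is thus not a separate result.

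**Figure D3:**
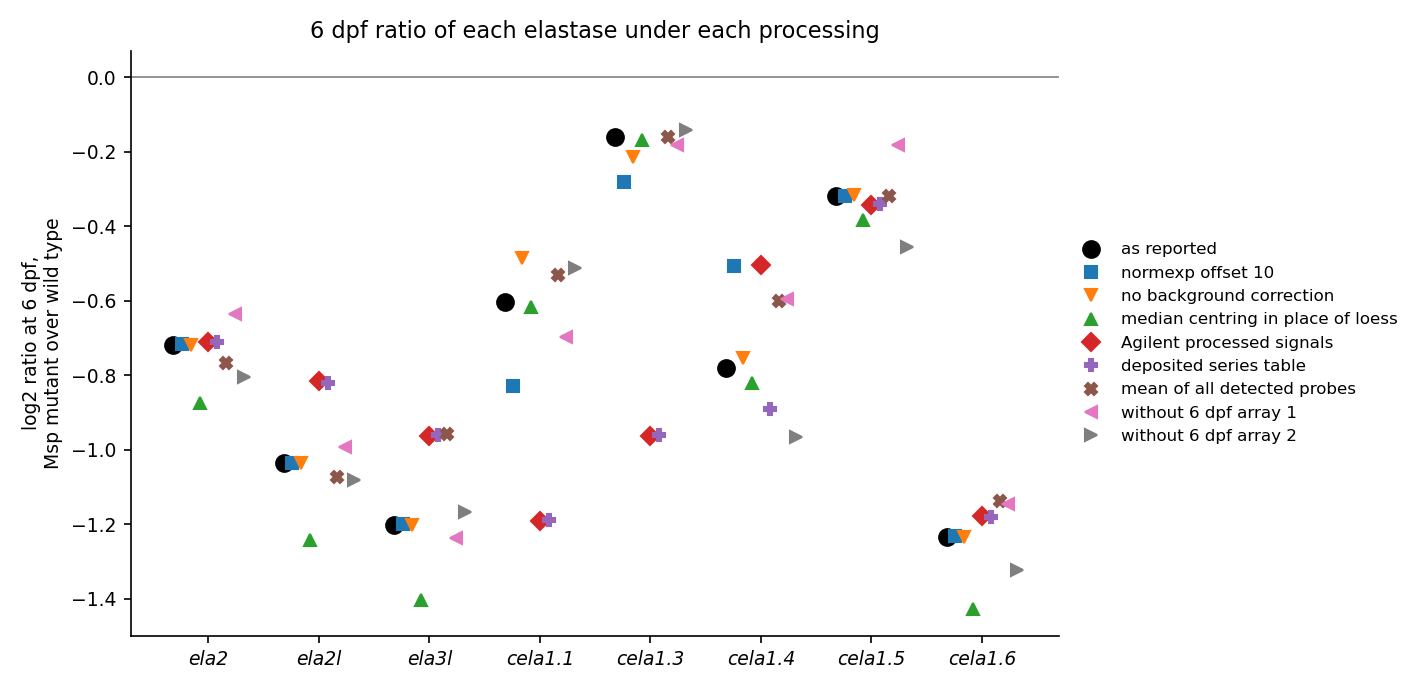
Log2 ratio of mutant over wild type at 6 dpf (y axis) of each elastase (x axis) as reported (black circles) and under 8 other ways of processing (other symbols). Each value lies below 0, from -1.43 for cela1.6 with median centring to -0.14 for cela1.3 without array 2.

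At 3 dpf the elastases did not share a direction. The median log2 ratio of the 8 genes was 0.03, against 0.02 over all genes, with 2 genes lower on both arrays, as were 26.5% of all genes tested. The 1 gene above 0 on both, cela1.3, was well above background on 1 of 2 mutant arrays and on no wild-type array, so its direction is not settled. By the size rule cela1.6 was lower (0.165% of all genes were lower, 0.314% either way) and 0 other elastases passed. Its ratio was -1.24 on array 1 and -0.91 on array 2 (-1.07 ± 0.24). Its other probe, A_15_P209091, gave -0.02 and -0.20 (-0.11 ± 0.13), but at 3 dpf was well above background on 1 of 2 mutant arrays and on no wild-type array. The 3 dpf difference of cela1.6 therefore rests on 1 probe, and the mean of both probes (-0.59), array 2 alone (-0.91) and values without background correction (-0.95) did not pass the rule.

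The other gene lower on both 3 dpf arrays was ela3l, at -0.28 and -0.35 (-0.32 ± 0.05). With Agilent's processed signals it stood at -1.0. The other ela3l probe, A_15_P117864, gave 0.10 and -0.18, but was not well above background on both 3 dpf arrays in either genotype. By their brightest probes cela1.6 and ela3l were lower on all 4 arrays, as were 11.6% of all genes. In contrast ela2l was not lower at 3 dpf by any of its probes. Probe A_15_P189296 gave 0.20 and 0.44 (0.32 ± 0.17), probe A_15_P656136 gave 0.29 and 0.38 (0.33 ± 0.06), and the brightest probe gave -0.0013 and 0.42 (0.21 ± 0.30). Of the 15 probes 4 were above 0 on both 3 dpf arrays, as were 29.4% of all probes. These 4 were below 0 on both 6 dpf arrays, as all 15 were. The joint pattern, found in 4.93% of all probes, thus follows here from the 3 dpf arrays alone. Of the remaining genes, ela2 stood at 0.06 ± 0.23 and cela1.5 at 0.08 ± 0.26, both within the SD of the arrays. The brightest probe of cela1.4 gave 0.00 ± 0.21, but was well above background on 1 of 2 arrays in each genotype. Its other probe, A_15_P622446, was well above background on both arrays in each genotype and gave 0.12 ± 0.02. No difference was measurable for cela1.1 and cela1.3, whose ratios near background moved to -0.48 and 0.55 with Agilent's processed signals.

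Limma over the ratios of both stages was the only test of genotype with separate pools. It called 1 of the 8 elastases, cela1.6, which fell by 1.15 ± 0.08 on the log2 scale (SE, 2 stages; adjusted p = 0.0110), where 0.576% of all genes fell and 1.01% were called in either direction. Probe by probe 1 of 15 was called lower, the brightest cela1.6 probe (adjusted p = 0.00487 in limma), against 0.87% of all probes. The call was lost with Agilent's processed signals (log2 -1.40, adjusted p = 0.0965), and it rests at 3 dpf on the probe described above. Next came ela3l at -0.76 ± 0.20 (adjusted p = 0.181), which limma called without array 2 of 3 dpf (-0.74, adjusted p = 0.00363). The other 6 stood between -0.41 for ela2l (adjusted p = 0.561) and -0.02 for cela1.3 (adjusted p = 0.952). With 2 values and 1 residual degree of freedom, a gene whose 6 dpf and 3 dpf ratios differ as those of ela2l do has a wide error in this test.

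The elastases were set beside the other products of acinar cells, from lists chosen with earlier results of these data known. All 6 measured trypsins and chymotrypsins and all 10 measured carboxypeptidases, lipases and amylases were lower in the mutant on both 6 dpf arrays. Of all genes tested 26.3% were lower on both. Some of these genes were dim at 6 dpf, such as cpa1 (6.79 in the mutant and 7.15 in wild type). Through which pool each of them passed the filter on dim probes was not examined. Median log2 ratios at 6 dpf were -0.75 for the elastases, -0.72 for trypsins and chymotrypsins and -0.80 for the third group. By the size rule at 6 dpf 0 of 6 trypsins and chymotrypsins and 4 of 10 of the third group were lower, where 0.257% of all genes were. The 4 were the carboxyl ester lipase cel.2 (-1.43 ± 0.04), the carboxypeptidase cpb1 (-1.38 ± 0.02) and the amylases amy2a (-1.34 ± 0.04) and amy2al2 (-1.15 ± 0.02). The trypsins and chymotrypsins lay in a narrow range from -0.84 for the chymotrypsin-like ctrl to -0.65 for ctrb.1, whereas the elastases spanned -1.23 to -0.16. The value of -0.16 belongs to the dim cela1.3, which stood at -0.96 with Agilent's processed signals.

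At 3 dpf the median ratios of these groups differed. The median was 0.03 for the elastases, -0.40 for trypsins and chymotrypsins and -0.14 for carboxypeptidases, lipases and amylases. These differences have no test. Several members were dim at 3 dpf, such as cela1.1, cela1.3, cela1.4, cpa1 (5.97 in the mutant and 6.00 in wild type) and cel.1 (6.02 and 6.10). Among trypsins and chymotrypsins ctrb.2 was dim (6.18 and 6.30) and prss1 brighter (8.95 and 9.46). The normexp offset pulls ratios of dim probes toward 0. How far brightness sets the order of the medians was not tested. Limma over both stages called ctrl (-0.75, adjusted p = 0.0232) and the trypsin prss1 (-0.58, adjusted p = 0.0406) lower, where 0.576% of all genes fell. Both had similar ratios at 6 and 3 dpf, -0.84 and -0.65 for ctrl and -0.65 and -0.51 for prss1. With age limma called 6 of 6 trypsins and chymotrypsins and 7 of 10 of the third group higher, where 4.86% of all genes were. Members dim at 3 dpf, such as ctrb.2 and cel.1, may have passed the filter on dim probes only through 6 dpf pools, where they were high. This was not examined, so these counts may be bound up with the filter. Median log2 changes were 7.22 for trypsins and chymotrypsins and 2.93 for the third group.

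**Figure D4:**
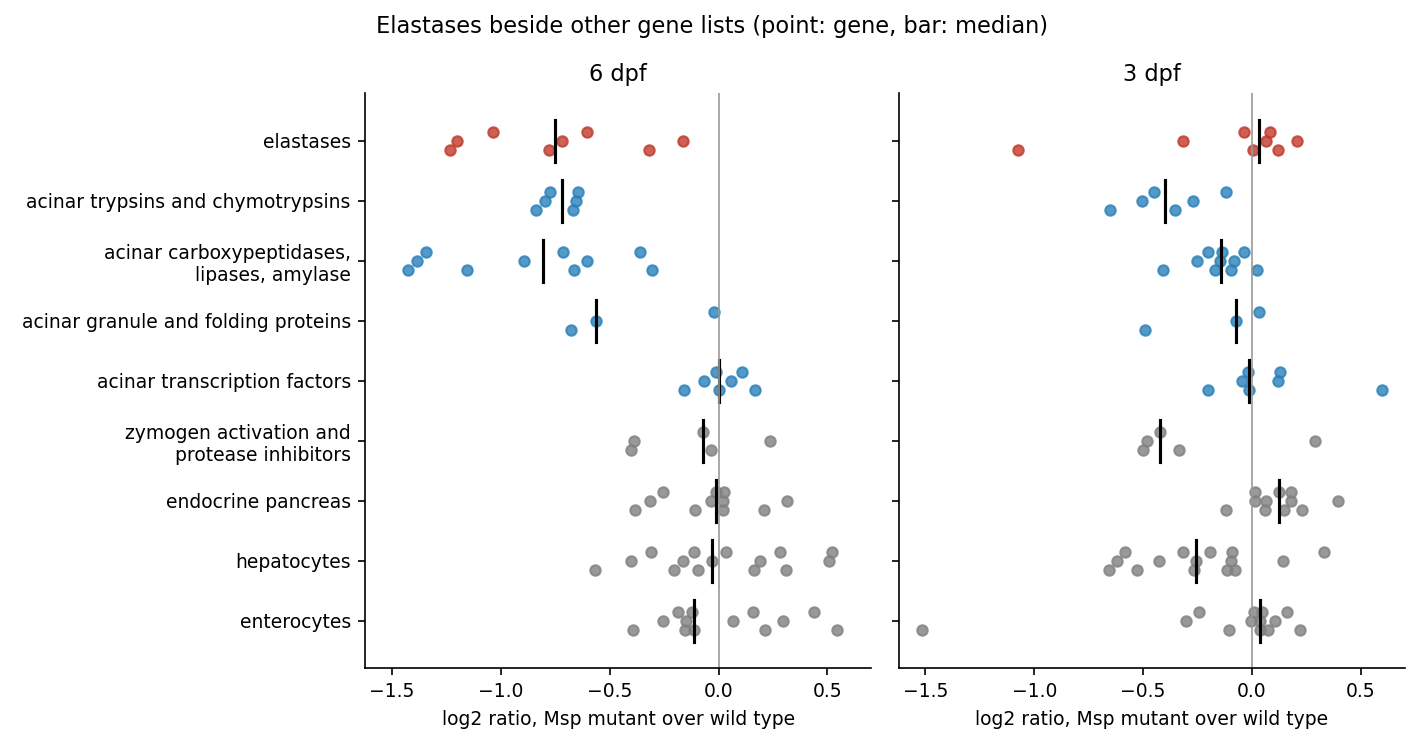
Log2 ratio of mutant over wild type (x axis) at 6 dpf (left) and 3 dpf (right) for the elastases (red), other acinar lists (blue) and other lists (grey); each point is a gene and each bar a median. At 6 dpf the medians of the elastases and both groups of other acinar enzymes lie between -0.80 and -0.72. That of acinar granule and folding proteins lies at -0.56. Those of acinar transcription factors, endocrine pancreas, hepatocytes and enterocytes lie between -0.11 and 0.00.

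Genes that act in acinar cells but encode no secreted enzyme did not move together. The 3 measured granule and folding genes had a median log2 ratio of -0.56 at 6 dpf, and 2 of them were lower on both arrays. The protein disulfide isomerase pdia2, a folding enzyme of the acinar endoplasmic reticulum, was called lower over both stages (-0.53, adjusted p = 0.0443 in limma; -0.56 at 6 dpf). The granule protein syncollin (sycn.2) stood at -0.68 ± 0.26 at 6 dpf, and the secretory GTPase rab3da at -0.02 ± 0.15. Limma called 0 of 7 measured acinar transcription factors, and their median was 0.00 at 6 dpf. Among them were xbp1 (0.17 ± 0.33), pdx1 (-0.16 ± 0.07) and hnf1ba (0.11 ± 0.21). The acinar determinant ptf1a was at 0.06 ± 0.27. At 6 dpf ptf1a was as dim as cela1.3 (6.49 in the mutant and 6.44 in wild type), whereas pdx1 (7.44 and 7.60), hnf1ba and xbp1 were brighter. The normexp offset pulls ratios of dim probes toward 0, so this value does not show ptf1a to be unchanged. Which cells of the whole embryos gave the transcript of these factors was not tested. In whole embryos, fewer acinar cells and less RNA per acinar cell cannot be told apart.

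Markers of neighbouring organs did not share the elastases' 6 dpf difference in these pools. The 11 measured endocrine pancreas genes had a median of -0.01 at 6 dpf, with insulin (ins) at -0.38 ± 0.21, glucagon (gcga) at 0.32 ± 0.33 and somatostatin (sst2) at -0.31 ± 0.15. The 15 hepatocyte genes had median ratios of -0.03 (6 dpf) and -0.26 (3 dpf); limma called 1 of them, the copper carrier cp (-0.58, adjusted p = 0.0335), while rbp4l stood at 0.52 ± 0.48 and fabp10a at 0.51 ± 0.02 at 6 dpf. Their part in the elastase results was not tested. The 13 enterocyte genes had median ratios of -0.11 (6 dpf) and 0.04 (3 dpf), with fabp6 at 0.54 ± 0.13 (and at -1.52 at 3 dpf, lower by the size rule), apoa1a at 0.44 ± 0.04 and slc15a1b at -0.39 ± 0.53 at 6 dpf. Of the protease inhibitors, serpina1, whose mammalian counterpart inhibits neutrophil elastase, stood at -0.40 ± 0.23 and its relative serpina1l at -0.39 ± 0.11 at 6 dpf; limma called 0 of the 5 measured, and the serine protease inhibitor spint2 stood at 0.24 ± 0.13.

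**Figure D5:**
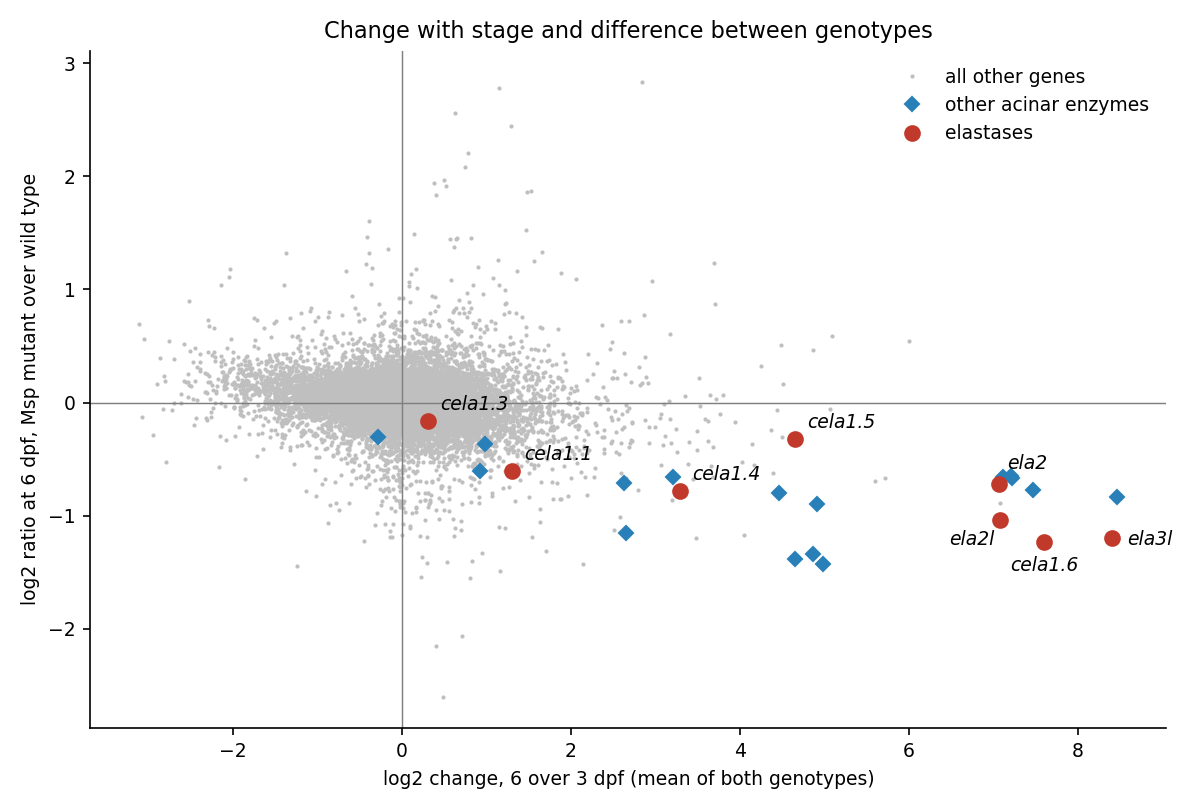
Log2 change from 3 to 6 dpf as the mean of both genotypes (x axis) against the log2 ratio of mutant over wild type at 6 dpf (y axis) for the 19434 genes tested; red circles are elastases and blue diamonds other acinar enzymes. The elastases cela1.6, ela3l, ela2l and ela2 lie at changes of 7.07 to 8.41 and ratios of -1.23 to -0.72, and cela1.3 lies within the cloud of other genes.

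A last description asked which genes had a pattern over the 4 pools most like that of the elastases, whose median profile, relative to the gene's own mean, was 2.59 in the mutant and 3.19 in wild type at 6 dpf and -2.86 in the mutant and -2.82 in wild type at 3 dpf. By Euclidean distance over the 4 pools, the closest named genes were the uncoupling protein gene ucp1 (0.15), the astacin protease gene c6ast4 (0.16) and igfbp1b (0.77). They were followed by the acinar enzymes cpa4 (0.85), cel.2 (0.95) and amy2a (1.02), by cyp3a65 (1.15) and ctsl.1 (1.16), by the carboxypeptidase cpb1 (1.24) and by fbxo32 (1.24). Of these 10 genes 4 were on the lists of acinar enzymes, which held 16 of the 19434 genes tested. The 10 were drawn only from named genes other than the elastases, which are fewer than the 19434. At 6 dpf the mutant was lower for ucp1 (-0.67) and c6ast4 (-0.69), but not for cyp3a65 (0.47) and ctsl.1 (0.59). The elastases themselves lay at distances of 1.1 for cela1.5 to 5.44 for cela1.3 from their median profile, so that the profile describes some members better than others.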

How the data were processed

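Per the file headers, Agilent's Feature Extraction, version 10.5.1.1, made the deposited scanner files, whose probes carry danRer6 annotation. Version 8.5.1.1 stands in the submitters' processing notes. The deposited files give median spot and local background intensity, processed intensity (background subtracted, dyes normalized) and, per the file headers, LogRatio as log10 of red over green. In the authors' deposited series table, scale and direction are unstated. Set against the scanner files, the 6 dpf columns of the authors' deposited table were log2 ratios of mutant over wild type, for array 1 and for the mean of both arrays (within 0.005). Its array 2 column of 3 dpf was not used, and its array 1 column of 3 dpf, a score of unknown order in the deposited table, matched no array and was left out.

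The software was limma 3.58.1 (R 4.3.3), with figures from matplotlib 3.10.9. Background was corrected by normexp (offset 50) on all spots, and arrays were normalized by loess with the 1417 control spots at weight 0. For 9 controls the cells of 1 file were shifted, so these were omitted, and outlier spots were dropped. Probes were named through RefSeq accession (25173), symbol (3192) or older symbol (1425); 5555 kept the file's symbol and 8258 had none and counted as genes of their own. A gene was represented by its probe with the highest mean signal and kept if, in 1 pool or more, both arrays had it well above background. Signals per pool followed Aquantile normalization.

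Genotype was tested over 2 stage values and stage over 4 pools, with Benjamini-Hochberg adjustment over 19434 genes and a threshold of 0.05. Both fits were tested on simulated data. Members, lists and tests were chosen with earlier results of these data known. Every elastase and every measured acinar enzyme could be named, and of each other list the 3 members with the largest 6 dpf ratio and any limma call; the statement on ptf1a lies outside this rule and was added after its value was seen. The 10 genes of most like pattern were taken by distance. Alternatives covered background correction, signal, normalization, probe choice, filter, single arrays and the deposited table.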

Additional observations from a re-analysis of the deposited data

Results flagged for a closer look

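In 4 elastase probes both 3 dpf arrays put the mutant above wild type and both 6 dpf arrays put it below, which was so for 4.93% of all probes tested. All 15 elastase probes tested were below 0 on both 6 dpf arrays, so this count follows from the 3 dpf arrays alone. There 4 of 15 were above 0 on both arrays, where 29.4% of all probes were, so the count does not set the elastases apart. The difference between the stages was not tested, since each stage had 1 pool per genotype. For ela2l the log2 ratio at 6 dpf minus that at 3 dpf was -1.58 by probe A_15_P189296 and -1.25 by probe A_15_P656136, each well above background in every pool. It was -0.54 for probe A_15_P622446 of cela1.4. For cela1.3 it was -0.28, by a probe not well above background in wild type at 3 dpf. That probe passed the filter on dim probes only through wild type at 6 dpf, where it was higher.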

How the results depend on the processing

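Of the counts of elastases past a threshold, 39 of 44 stayed within 1.5 times under the other settings. For genotype over both stages the count was 1, and 0 with Agilent's processed signals; leaving out an array gave 1 to 2. At 3 dpf the count by size was 1, and 0 without background correction and with the mean of all detected probes; leaving out an array gave 0 to 1. At 6 dpf it was 3, and 2 to 3 under every other setting run, but not always of the same genes: ela2l and ela3l were lost with Agilent's processed signals, where cela1.1 passed. The count for 6 against 3 dpf was 7, and 6 to 7. The ratio of cela1.3 over both stages turned sign with median centring (0.0028), and leaving out an array gave -0.0452 to 0.0053, against -0.02. Over all genes the size rule counted 100 at 6 dpf and 61 at 3 dpf, against 330 and 280 from Agilent's signals, 166 and 108 at offset 10 and 152 and 94 probe by probe; at 3 dpf the mean of probes gave 37 and array 1 alone 103. Limma called 197 genes for genotype, against 27 with Agilent's signals, 391 without the filter, 477 probe by probe, and 325 and 753 without array 1 or array 2 of 3 dpf. For stage it called 1975 (944 higher, 1031 lower), against 4337 with Agilent's signals and 3130 probe by probe; without normalization between arrays 2233 of 2724 were lower. The causes were not tested. No paired analysis was possible because the labels give no replicate numbers, beyond the pairing of mutant and wild type within an array that every ratio holds. With 1 pool per genotype and stage, no spread between embryos was measured. Signals near background limit cela1.1 and cela1.3 and, at 3 dpf, the brightest probe of cela1.4.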

Other observations

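In the authors' deposited table the 6 dpf log2 ratio, mutant over wild type, was -1.29 for probe A_15_P189296 of ela2l and -1.18 for probe A_15_P212996 of cela1.6. The authors' deposited table also gave -1.79 for probe A_15_P150526 of cela1.1, which stood at -0.46 ± 0.02 after normexp with offset 50 and was well above background on 1 of 2 mutant arrays at 6 dpf.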
